A study of Mus musculus with 20 samples.

Results

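A set of 10 genes for the release, uptake and turnover of fatty acids was followed across clonal fibroblast lines that can or cannot become fat cells. They are Lpl, Lmf1, Angptl4, Cd36, Fabp3, Fabp4, Fabp5, Pnpla2, Lipe and Mgll. All probe sets that the platform annotation assigns to these symbols were taken, 25 of the 45037 probe sets that are not controls, and all 10 genes were among the 18193 genes with a probe set of 1 symbol. The group was selected on earlier results of these same arrays, being chosen by the higher intensity of Lpl in the preadipose lines. Differences between the classes of lines are therefore given for them as a description, with no test.

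The study compared 7 clonal lines of the Swiss 3T3 strain, immortalized fibroblasts of mouse embryos, on 3' oligonucleotide expression arrays. The 4 labelled preadipocyte, able to become fat cells, are Swiss 19 and Swiss 2, with Swiss 8 and Swiss 9. The other 3 are non-adipogenic: Swiss 3, Swiss 5 and Swiss 22. Each line had 3 arrays except Swiss 19 with 2, giving 11 preadipose and 9 non-adipogenic arrays. All lines were grown in DMEM with 10% bovine serum, without inducing differentiation, and were collected while dividing. Each line is 1 clone, so a difference between lines is one between clones. Whether the arrays of 1 line stem from different cultures is not labelled. The p-values within a class rest on the spread of those arrays, which may be technical.

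Lipoprotein lipase, the product of Lpl, splits the triglyceride of circulating lipoproteins at the cell surface and so supplies fatty acids to fat and muscle. It must be matured in the endoplasmic reticulum by the factor encoded by Lmf1, and it is inhibited by the secreted protein of Angptl4. The fatty acids enter cells with the help of carriers such as CD36 and are bound inside by the small proteins of the FABP family. In fat cells stored triglyceride is broken down in successive steps by adipose triglyceride lipase (Pnpla2), hormone-sensitive lipase (Lipe) and monoglyceride lipase (Mgll). Lpl is known as an early gene of fat cell formation, and Fabp4 as a marker of mature fat cells that macrophages and capillary endothelium also express.

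The deposited values are linear intensities. For readable levels each array was scaled to a trimmed mean of 500, and these values are called scaled intensity. Tests were run on log2(intensity + 32) after quantile normalization, and the added 32 compresses the log2 differences of dim genes. Folds are ratios of mean scaled intensity and can exceed the tested log2 differences. A line counted as above background where its mean scaled intensity exceeded the 95th percentile of 27 bacterial control probe sets, which lay between 76.5 and 143 in the 7 lines. Mean intensity per array ran from 26.8 to 160.2. By the level of 9 hybridization spikes 11 arrays were dim and 9 bright, with a 1.62-fold gap between them. Swiss 2, Swiss 8 and Swiss 9 were dim throughout, Swiss 19, Swiss 5 and Swiss 22 bright throughout, and Swiss 3 had replicates 1 and 2 dim and replicate 3 bright. Each of the 20 arrays resembled an array of its own line more than any other. All 8 fibroblast markers examined were above background in every line. Of 5 measured markers of mature fat cells, Cidec, Lep and Ucp1 were above background in no line, Adipoq in Swiss 3 alone (154 against a background of 105) and Retn in all 7. Their summed scaled intensity was 381 to 479.8 in preadipose and 259.95 to 715 in non-adipogenic lines.

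**Figure D1:**
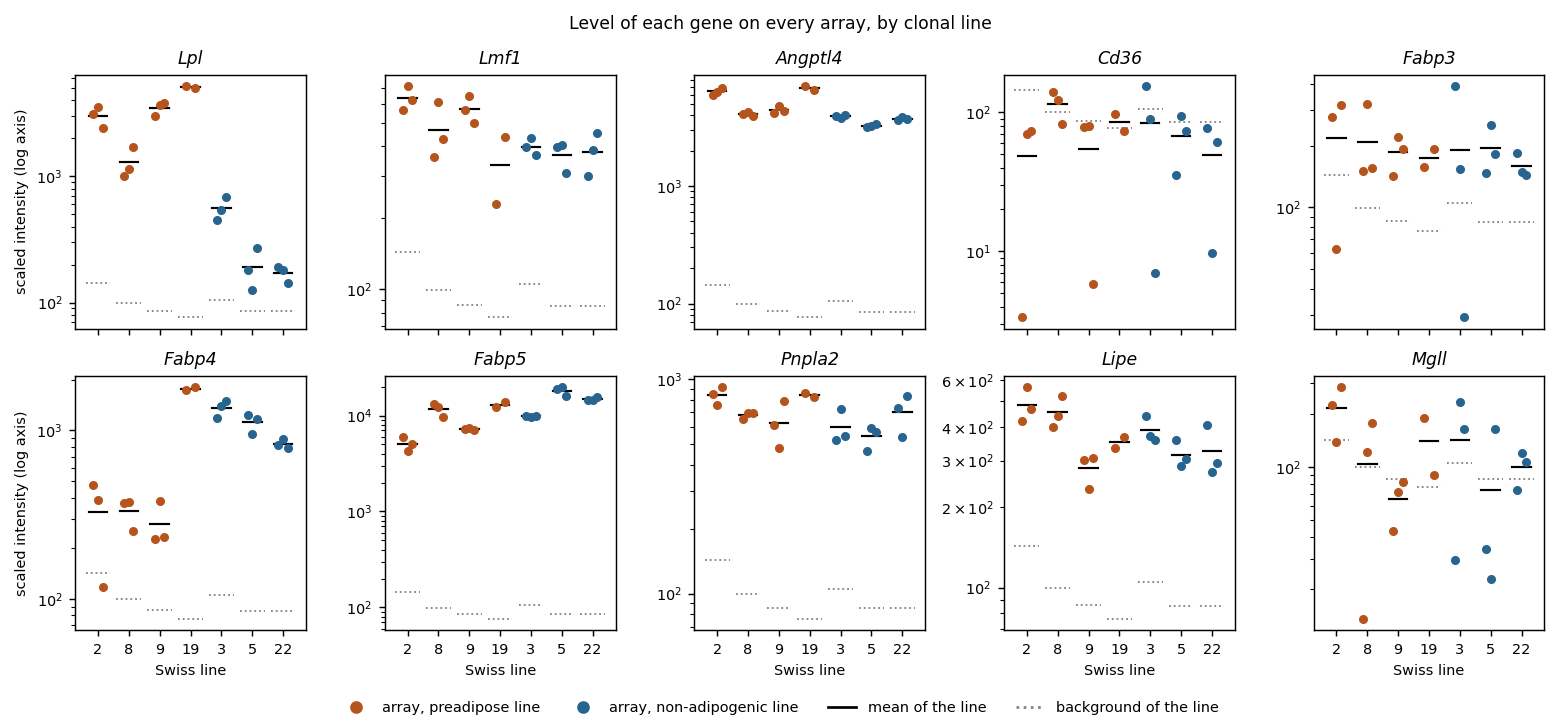
Scaled intensity (log axis) of the 10 genes on each of the 20 arrays, by Swiss line, on the probe set used for each gene. Points are arrays, black bars line means and dotted bars the background of each line. Lpl runs from 5079 in Swiss 19 to 173 in Swiss 22, Fabp4 is high in Swiss 19 and the 3 non-adipogenic lines, and Cd36 lies around background in all lines.

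Lpl was above background in all 7 lines and was graded among them. In Swiss 5 and Swiss 22 Lpl lay near background, which was 85.3 in each of these lines. On its brighter probe set the arrays read 5189 and 4969 in Swiss 19. They read 2982, 3688 and 3833 in Swiss 9, and 3094, 3531 and 2438 in Swiss 2. Swiss 8 was the lowest preadipose line, with 1011, 1149.8 and 1716. Every array of the non-adipogenic lines was lower still. These read 455, 537 and 682 in Swiss 3, 182, 127 and 269.7 in Swiss 5, and 192, 183 and 143 in Swiss 22, so that Swiss 3 stood between Swiss 8 and the other 2 non-adipogenic lines on every array. In bulk RNA, fewer expressing cells and less RNA per cell cannot be told apart.

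Lpl differed among the 4 preadipose lines (limma moderated F test, adjusted p = 2.59e-06) and among the 3 non-adipogenic lines (adjusted p = 0.00582). Swiss 19 exceeded Swiss 8 by 3.93-fold in scaled intensity (log2 difference 1.66 ± 0.16 SE, limma adjusted p = 1.01e-06), Swiss 2 by 1.68-fold (adjusted p = 0.00722) and Swiss 9 by 1.45-fold (adjusted p = 0.0307). Swiss 9 and Swiss 2 overlapped in their arrays and did not differ past the threshold (adjusted p = 0.688). Both exceeded Swiss 8, Swiss 9 by 2.71-fold (adjusted p = 8.33e-05) and Swiss 2 by 2.34-fold (adjusted p = 0.000261). Among the non-adipogenic lines Swiss 3 exceeded Swiss 5 by 2.89-fold in scaled intensity (tested log2 difference 0.59, adjusted p = 0.00644). It exceeded Swiss 22 by 3.23-fold (tested log2 difference 0.60, adjusted p = 0.00675), while Swiss 5 and Swiss 22 overlapped (adjusted p = 0.997). The second Lpl probe set kept this order except that Swiss 2 (1908.5) lay above Swiss 9 (1729). Its other means were 2200.3 (Swiss 19), 1023 (Swiss 8), 363 (Swiss 3), 119 (Swiss 5) and 101 (Swiss 22). In the fit on all probe sets it differed among preadipose (adjusted p = 6.59e-05) and among non-adipogenic lines (adjusted p = 0.00198), but its differences of Swiss 19 from Swiss 2 and Swiss 9 did not pass. The call between Swiss 2 and Swiss 8 was lost with arrays centred on their medians (adjusted p = 0.0617) and without normalization (adjusted p = 0.172), and those of Swiss 19 from Swiss 9 and Swiss 2 with scaling before the pseudocount (adjusted p = 0.310 and 0.0942). The non-adipogenic F test of Lpl did not pass without replicate 3 of Swiss 3, the bright array of that line (adjusted p = 0.0526), with arrays centred on their medians (adjusted p = 0.0839) and without normalization (adjusted p = 0.539).

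Between the classes, Lpl averaged 3223 ± 1559 (SD, n = 4 lines) in preadipose and 308 ± 217 (SD, n = 3 lines) in non-adipogenic lines on this probe set, and the line means did not overlap. Swiss 8, the lowest preadipose line, and Swiss 3, the highest non-adipogenic one, were 0.77 apart on the log2 scale, less than the distance of 1.66 between the preadipose lines Swiss 8 and Swiss 19. Within the dim arrays the log2 difference between classes was 1.56, with Swiss 3 as the only non-adipogenic line, and within the bright arrays it was 2.76, with Swiss 19 as the only preadipose line.

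Lmf1, the maturation factor of the lipase, differed among preadipose lines. Its line means of scaled intensity were 634 (Swiss 2; SD 72.6, n = 3 arrays), 568 ± 74.4 (Swiss 9), 465 ± 128 (Swiss 8) and 333 ± 147 (Swiss 19, n = 2 arrays). The non-adipogenic lines lay close together, with means from 367 in Swiss 5 to 396 in Swiss 3. The F test among preadipose lines gave adjusted p = 0.0172 (limma), Lmf1 being lower in Swiss 19 than in Swiss 2 (adjusted p = 0.00715) and Swiss 9 (adjusted p = 0.0291), and that among non-adipogenic lines gave adjusted p = 0.997. Thus the preadipose line highest in Lpl was the lowest in Lmf1 on this probe set. The difference rested on few arrays: Swiss 19 read 229 and 437, and without the first the F test gave adjusted p = 0.170. It also did not pass with scaling before the pseudocount (adjusted p = 0.0617) or when spike intensity entered the fit (adjusted p = 0.319). Nor did it pass with the mean of all Lmf1 probe sets (adjusted p = 0.226) or with arrays centred on their medians (adjusted p = 0.249). With arrays centred on their medians or without normalization Lmf1 was higher in Swiss 19 than in Swiss 2 and Swiss 9. The other Lmf1 probe set, dimmer, was above background in all lines but Swiss 2. It did not differ among preadipose lines (fit on all probe sets, limma F test, adjusted p = 0.750). On it Swiss 2 minus Swiss 19 was -0.045 on the log2 scale.

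Angptl4, the lipase inhibitor, was well above background in every line and highest in Swiss 19 and Swiss 2. The arrays read 7079 and 6557 in Swiss 19 and 5994, 6295 and 6841 in Swiss 2. Swiss 9 read 4209, 4786 and 4309, and Swiss 8 read 4097, 4244 and 3964. No array of Swiss 19 or Swiss 2 came within the range of Swiss 9 and Swiss 8. Swiss 19 exceeded Swiss 8 by 1.66-fold (log2 difference 0.71 ± 0.076 SE, limma adjusted p = 4.17e-06) and Swiss 9 by 1.54-fold (adjusted p = 1.57e-05), and Swiss 2 exceeded them by 1.55-fold (adjusted p = 4.94e-05) and 1.44-fold (adjusted p = 4.18e-05). Swiss 19 and Swiss 2 overlapped (adjusted p = 0.411). The higher Angptl4 of Swiss 2 depended on the normalization. With arrays centred on their medians and without normalization Swiss 2 was lower than Swiss 9, and its difference from Swiss 8 was 0.14 (adjusted p = 0.763) and 0.10 (adjusted p = 0.906) on the log2 scale.

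The non-adipogenic lines lay at or below the level of Swiss 8 in Angptl4. They read 3950.3, 3813 and 3991 in Swiss 3, 3617, 3862 and 3715.5 in Swiss 22, and 3163, 3220.3 and 3381 in Swiss 5. Swiss 3 exceeded Swiss 5 by 0.29 on the log2 scale (limma adjusted p = 0.00485), and Angptl4 differed among the 3 lines (F test, adjusted p = 0.0137). That F test did not pass without replicate 1 of Swiss 3 (adjusted p = 0.0537), without replicate 1 of Swiss 5 (adjusted p = 0.0548), with scaling before the pseudocount (adjusted p = 0.154) or within the bright arrays, where Swiss 3 had 1 array (adjusted p = 0.0851), and Swiss 3 was the lower line with arrays centred on their medians and without normalization. Swiss 3 and Swiss 8 differed by 0.00090 on the log2 scale, so classes overlapped. Angptl4 averaged 5433 ± 1363 (SD, n = 4 lines) in preadipose and 3635 ± 342 (SD, n = 3 lines) in non-adipogenic lines, and the log2 difference was 0.49 over all arrays, 0.22 within the dim and 0.85 within the bright ones. Centring arrays on their medians turned it to -0.040 and leaving them without normalization to -0.17. The Angptl4 probe set used is of a kind that can match several transcripts. The second Angptl4 probe set was above background in no line.

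Cd36, the fatty acid carrier of the cell surface, was at or near background throughout. Its brightest probe set exceeded the background of the line in Swiss 8 (114 against 99.5) and Swiss 19 (85.4 against 76.5) and in none of the other 5 lines. Of the 20 arrays, 7 were above their own background. The other 2 Cd36 probe sets were above background in no line. No fold is given for levels this close to background. The F tests gave adjusted p = 0.395 among preadipose and adjusted p = 0.979 among non-adipogenic lines.

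The 3 FABP genes encode related intracellular fatty acid binding proteins. Fabp4 was high in Swiss 19 and low in the other 3 preadipose lines. The arrays read 1733 and 1801.5 in Swiss 19, against 477, 387 and 118 in Swiss 2, 373, 375 and 255 in Swiss 8, and 227, 379.7 and 233 in Swiss 9. Swiss 19 was thus 5.40-fold above Swiss 2 in scaled intensity. The tested log2 difference, Swiss 2 minus Swiss 19, was -1.495 ± 0.16 SE (limma adjusted p = 2.96e-06). Swiss 19 was 5.29-fold above Swiss 8 (log2 difference taken the same way -1.42, adjusted p = 6.41e-06). It was 6.31-fold above Swiss 9 (-1.50, adjusted p = 3.74e-06). The differences among Swiss 2, Swiss 8 and Swiss 9 did not pass.

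The non-adipogenic lines lay between these levels. Fabp4 read 1183, 1398 and 1495 in Swiss 3, 1239, 958 and 1164 in Swiss 5, and 823, 889 and 792 in Swiss 22. Every non-adipogenic array was above every array of Swiss 2, Swiss 8 and Swiss 9 and below both arrays of Swiss 19. Swiss 3 exceeded Swiss 22 by 1.63-fold (tested log2 difference 0.50, limma adjusted p = 0.0232). The F test among the 3 lines gave adjusted p = 0.0519 and passed when replicate 1 (adjusted p = 0.0219) or replicate 3 of Swiss 2 (adjusted p = 0.00391) or replicate 2 of Swiss 9 (adjusted p = 0.0496) was left out, since all lines share 1 estimate of the spread. It also passed with the larger pseudocount of 64 (adjusted p = 0.0188). The difference of Swiss 3 from Swiss 22 did not pass with scaling before the pseudocount (adjusted p = 0.257) or a pseudocount of 8 (adjusted p = 0.142). With arrays centred on their medians and without normalization Swiss 3 was lower than Swiss 22.

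Swiss 19 was the only preadipose line among the bright arrays, so among preadipose lines the level of Fabp4 moved with brightness, whose part in it was not tested. In Swiss 3, the line with arrays on both sides, Fabp4 averaged 1291 on the dim and 1495 on the bright arrays, both above every array of the 3 dim preadipose lines. The class contrast of Fabp4 changed sign between the parts. It was -1.17 on the log2 scale within the dim arrays, where Swiss 2, Swiss 8 and Swiss 9 met Swiss 3, and 0.47 within the bright arrays, where Swiss 19 met all 3 non-adipogenic lines. Over all arrays Fabp4 averaged 677 ± 727 (SD, n = 4 lines) in preadipose and 1105 ± 263 (SD, n = 3 lines) in non-adipogenic lines, with overlap. The second Fabp4 probe set showed the same contrast, at 533 for Swiss 19 and 125 to 153 for the other preadipose lines, with 285 to 428 for the non-adipogenic lines (fit on all probe sets, F test among preadipose lines, limma adjusted p = 0.00260). Of the other 2 probe sets of Fabp4, 1 was above background in no line, and 1, between 86.4 and 135.5, was above it in all but Swiss 2 and Swiss 8.

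Markers of macrophages and endothelium, other cell types that express Fabp4, were read in all lines. Of 8 macrophage markers, Ptprc and Itgam were above background in no line, Cd68, Adgre1, Csf1r and Lyz2 in all 7, and the list summed to 1425 to 1945 in preadipose and 1322 to 2211 in non-adipogenic lines, lowest of the preadipose lines in Swiss 19 and highest of all in Swiss 3, where the lysozyme gene Lyz2 read 872. Of 6 endothelial markers, Pecam1 and Tie1 were above background in no line and 0 in all lines, with sums of 456 to 611 and 539 to 801, highest in Swiss 3. These sums include markers below background, and Swiss 3 had the highest background of the non-adipogenic lines (105). Single macrophage markers differed in their order. Csf1r read 698 in Swiss 19, below Swiss 8 alone (730), against 425 to 496 in the non-adipogenic lines. Adgre1 was lowest of all in Swiss 19 (118). The part of such cells in the Fabp4 levels was not tested.

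Fabp5 was bright in every line, and Swiss 2 was the lowest. The arrays of Swiss 2 read 6000.5, 4315 and 5014. Swiss 9 read 7280.3, 7477 and 7092, Swiss 8 read 13134, 12293 and 9591, and Swiss 19 read 12195 and 13856. Swiss 2 and Swiss 9 did not overlap with each other or with any other line. Swiss 19 was 2.55-fold above Swiss 2 (log2 difference 1.33 ± 0.12 SE, limma adjusted p = 3.09e-07) and 1.79-fold above Swiss 9 (adjusted p = 1.97e-05). Swiss 8 was 2.28-fold above Swiss 2 (adjusted p = 1.50e-05) and 1.60-fold above Swiss 9 (adjusted p = 0.000607), and Swiss 9 was 1.43-fold above Swiss 2 (adjusted p = 0.0194). Swiss 19 and Swiss 8 did not differ past the threshold (adjusted p = 0.136). The difference of Swiss 8 from Swiss 9 did not pass with arrays centred on their medians (adjusted p = 0.268) or without normalization (adjusted p = 0.578).

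In non-adipogenic lines Fabp5 was lowest in Swiss 3. Its arrays read 10003, 9639.9 and 9942 in Swiss 3, 14401, 14433 and 15454 in Swiss 22, and 18926, 19654 and 16084 in Swiss 5. Swiss 5 exceeded Swiss 3 by 1.85-fold (limma adjusted p = 3.62e-05) and Swiss 22 exceeded it by 0.52 on the log2 scale (adjusted p = 0.00175). Swiss 3 was thus the non-adipogenic line with the most Lpl and the least Fabp5. The second Fabp5 probe set differed among preadipose (limma adjusted p = 1.67e-05) and non-adipogenic lines (adjusted p = 0.000357) with Swiss 2 and Swiss 3 again lowest in their classes, though its differences of Swiss 9 from Swiss 2 and of Swiss 22 from Swiss 3 did not pass. Fabp5 averaged 9273 ± 3703 (SD, n = 4 lines) in preadipose and 14282 ± 4201 (SD, n = 3 lines) in non-adipogenic lines, with overlap, and the log2 difference of -0.66 was -0.45 within the dim and -0.019 within the bright arrays, and it was larger in size with arrays centred on their medians and without normalization, where it reached -1.35.

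Fabp3, the FABP of heart and skeletal muscle, was low in all lines. On the probe set used, line means lay between 159 in Swiss 22 and 218 in Swiss 2, all above background, and neither F test passed (adjusted p = 0.998 and 0.948). Its arrays scattered widely within a line, from 29.1 to 391 in Swiss 3 and from 62.7 to 317 in Swiss 2. The other Fabp3 probe set was highest in Swiss 3, at 343 ± 65.6 (SD, n = 3 arrays), against 119 to 188 in the other 6 lines, but its F test among non-adipogenic lines did not pass (fit on all probe sets, limma adjusted p = 0.109). Of 6 skeletal muscle markers, Myog and Myh3 were above background in no line, and Ckm and Acta1 in all 7, with sums of 704 to 991 in preadipose and 736 to 916 in non-adipogenic lines.

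The lipases that act inside the cell were more even across lines than Lpl. Pnpla2 lay between 541 ± 67.4 (SD, n = 3 arrays) in Swiss 5 and 843 ± 25.4 (n = 2 arrays) in Swiss 19, and its F tests did not pass among preadipose (limma adjusted p = 0.222) or non-adipogenic lines (adjusted p = 0.525). With arrays centred on their medians both passed (adjusted p = 4.91e-07 and 7.86e-06). Lipe differed among preadipose lines (limma F test, adjusted p = 0.0122), from 485 ± 72.4 (Swiss 2, SD, n = 3 arrays) and 455 ± 61.8 (Swiss 8) to 351 ± 25.4 (Swiss 19, n = 2 arrays) and 281 ± 40.9 (Swiss 9). Swiss 2 exceeded Swiss 9 by 1.73-fold (tested log2 difference 0.31, adjusted p = 0.00963) and Swiss 8 exceeded it by 1.62-fold (tested log2 difference 0.28, adjusted p = 0.0387). Among non-adipogenic lines Lipe lay between 316 and 390.5 and did not pass (adjusted p = 0.838). Taking the mean of its 2 probe sets, of which the other was above background in no line, ended the preadipose call (adjusted p = 0.278). Both pair differences of Lipe also missed the threshold with arrays centred on their medians (log2 0.068, adjusted p = 0.794, and 0.17, adjusted p = 0.682) and without normalization (adjusted p = 0.977 and 0.960), and that of Swiss 8 with scaling before the pseudocount (adjusted p = 0.0528).

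Mgll was near background. Its brightest probe set, of a kind that can match several transcripts, exceeded background in 5 lines, from 100.1 in Swiss 22 to 216 in Swiss 2, and in 12 of 20 arrays. None of its 4 probe sets was above background in every line, and they did not give 1 order of lines: Swiss 2 had the highest mean on that probe set and the lowest, 22.6, on another. Neither F test passed (limma adjusted p = 0.385 among preadipose and 0.807 among non-adipogenic lines).

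**Figure D2:**
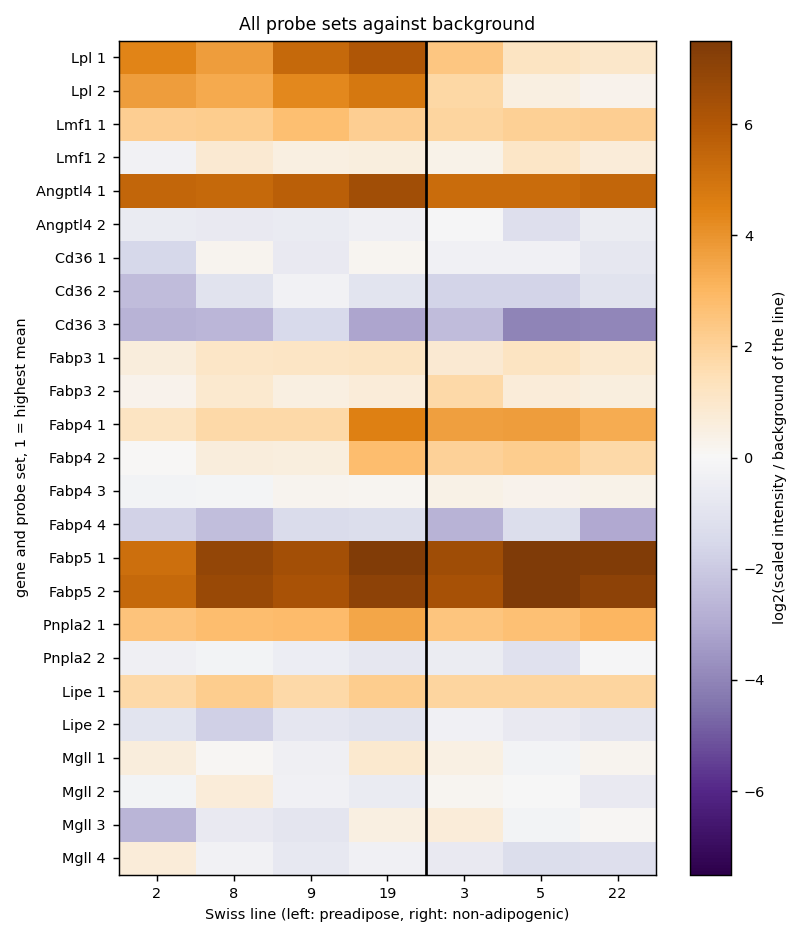
All 25 probe sets of the 10 genes (rows) by Swiss line (columns), as log2 of the mean scaled intensity over the background of the line. Orange is above and purple below background. In all, 12 probe sets were above background in every line, 7 in some lines and 6 in none.

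Counted over the genes, 6 of the 10 differed among preadipose lines (Lpl, Lmf1, Angptl4, Fabp4, Fabp5 and Lipe), where 23.1% of all genes tested did (limma F test, adjusted p below 0.05). Among non-adipogenic lines 3 of 10 differed (Lpl, Angptl4 and Fabp5), against 16.4% of all genes. The median log2 range of line means was 0.41 for the 10 genes against 0.25 for all genes in preadipose lines, and 0.16 against 0.17 in non-adipogenic lines. Within the dim arrays, which hold Swiss 2, Swiss 8 and Swiss 9, the count among preadipose lines was 3, namely Lpl, Angptl4 and Fabp5. In that fit 8.65% of all genes were called.

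By pairs of lines, Swiss 2 and Swiss 8 differed in 3 of the 10 genes (9.51% of all genes), Swiss 2 and Swiss 9 in 3 (13.6%), and Swiss 8 and Swiss 9 in 3 (5.13%). Swiss 19 differed from Swiss 2 in 4 (13.5%), from Swiss 8 in 3 (11.3%) and from Swiss 9 in 5 (9.7%). Where Swiss 19 differed from Swiss 8, the 3 genes Lpl, Fabp4 and Angptl4 were all higher in Swiss 19. Against Swiss 9 the same held for Lpl, Fabp4, Fabp5 and Angptl4, and Lmf1 was lower. Swiss 3 differed from Swiss 5 in 3 genes (15%) and from Swiss 22 in 3 (13%). Swiss 5 and Swiss 22 differed in 0 (1.56%), and none of the 10 genes had an adjusted p below 0.05 for that pair in limma. These were 27 of 90 gene and pair tests, where 10.2% of the pair tests of all genes were called. All 27 kept their sign with scaling before the pseudocount, 21 of them past the threshold. That fit called 7.47% of the pair tests of all genes. With arrays centred on their medians 22 kept it, 15 of them past the threshold, and 5 turned, 2 of them past the threshold the other way. Without normalization these counts were 22, 15, 5 and 4. Of the pair tests of all genes, 41.6% were called with arrays centred on their medians and 44.4% without normalization.

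**Figure D3:**
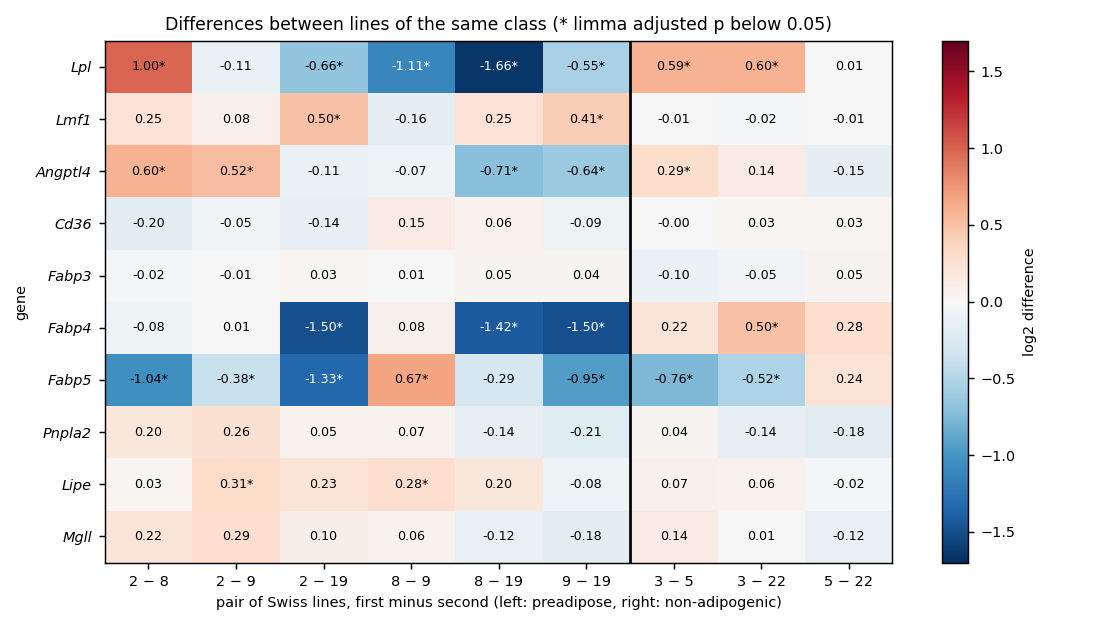
Log2 difference of each of the 10 genes (rows) between lines of the same class, first minus second (columns, labelled with the Swiss line numbers), with the 6 preadipose pairs on the left and the 3 non-adipogenic pairs on the right. Stars mark the 27 differences with limma adjusted p below 0.05. Fabp4 differs between Swiss 19 and each other preadipose line, and the pair of Swiss 5 and Swiss 22 has no star.

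Between the classes, Lpl was the only 1 of the 10 genes whose line means did not overlap, as 14% of all genes did not (6.41% higher and 7.54% lower in preadipose lines). This count describes the contrast by which the genes were picked. The median log2 difference was 0.067 for the 10 genes and 0.0033 for all genes. The signed difference was below 0 for Fabp4 and Fabp5 and above 0 for the other 8 genes. Those of Lipe, Pnpla2, Angptl4 and Lmf1 were below 0 with arrays centred on their medians and without normalization, where the median of all genes lay at -0.063 and -0.19.

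Of 77 further genes of fatty acid supply in 5 lists, 66 were measured, and 2 were called between the classes, both higher in preadipose lines, where 1.52% of all genes were called, 0.577% higher and 0.94% lower (limma on 7 line means). An unadjusted p below 0.05 was reached by 18 of the 66 (27.3%), against 15.6% of all genes, and the median log2 difference of the 66 was 0.011. Cav2, a caveolin of the membrane pits that take part in fatty acid uptake, was 2.80-fold higher, at 1456 ± 93.7 (SD, n = 4 lines) against 521 ± 68.4 (SD, n = 3 lines; log2 difference 0.96 ± 0.081 SE, limma adjusted p = 0.00512). Its preadipose lines read from 1338 (Swiss 9) to 1554.5 (Swiss 19), and its non-adipogenic lines from 442 (Swiss 3) to 562 (Swiss 5). It passed whichever line was left out, but not with arrays centred on their medians (log2 difference 0.62, adjusted p = 0.910) or without normalization (0.49, adjusted p = 0.883). Lmf2, the relative of Lmf1, was 1.44-fold higher, at 2422.5 ± 124 against 1680.1 ± 73.4 (adjusted p = 0.0154), but turned to -0.043 with arrays centred on their medians and to -0.17 without normalization. Lmf2 did not pass without Swiss 8 (adjusted p = 0.0546), Swiss 3 (0.0596), Swiss 5 (0.0531) or Swiss 22 (0.0831).

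**Figure D4:**
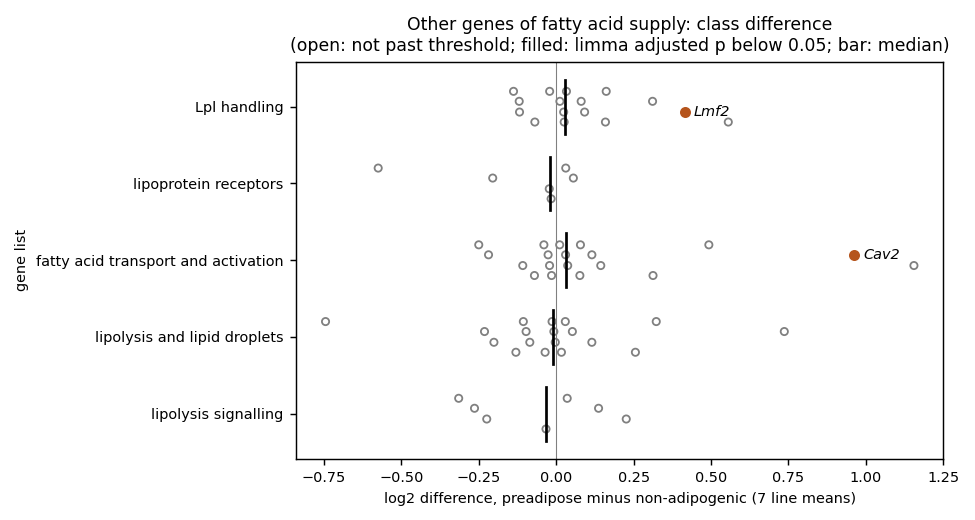
Log2 difference between preadipose and non-adipogenic lines (7 line means) of 66 further genes in 5 lists. Each circle is a gene, filled where limma adjusted p was below 0.05, and black bars are list medians, which lie between -0.033 and 0.030. Lmf2 and Cav2 are the filled circles.

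Within the classes these lists varied about as often as genes at large. Of the 66 genes, 17 (25.8%, against 23.1% of all genes) differed among preadipose and 15 (22.7%, against 16.4%) among non-adipogenic lines by the limma F test. Swiss 19 was the only bright preadipose line, and Swiss 3 the only non-adipogenic line with dim arrays. Differences of these lines from others of their class thus went along with brightness. Within the dim arrays, which lack Swiss 19, 10 list genes were called among preadipose lines (8.65% of all genes). With the spike level as a covariate 8 were called among non-adipogenic lines (9.15%). The part of brightness in the single list genes named here and below was not tested. Among 16 genes that handle Lpl, 1 was called higher and 0 lower between classes (0.577% and 0.94% of all genes). Of these 16, 4 differed among preadipose lines and 1 among non-adipogenic lines. Calr, a chaperone of the endoplasmic reticulum, was lowest in Swiss 2 (24954) and highest in Swiss 8 (35436) among preadipose lines (adjusted p = 7.66e-05) and lowest in Swiss 3 among the others (28986, adjusted p = 0.00255). The proprotein convertases Pcsk6 (284 to 596, adjusted p = 0.0444) and Furin (795 to 1386, adjusted p = 0.0223), enzymes that can cut lipase and its inhibitors, also differed among preadipose lines. Gpihbp1, which carries the lipase across capillary endothelium, was above background in all 7 lines, at 329.99 ± 68.5 and 309 ± 140.3 in the classes.

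Lipoprotein receptors had 0 of 6 genes called between classes (1.52% of all genes). In each class 3 were called, against 23.1% of all genes among preadipose and 16.4% among non-adipogenic lines. Among preadipose lines the receptor Lrp1 was highest in Swiss 19 (7729.5) and lowest in Swiss 9 (3568, limma adjusted p = 6.05e-05). The VLDL receptor Vldlr was high in Swiss 2 (1831) and Swiss 19 (1595) and lower in Swiss 8 (869.5) and Swiss 9 (776, adjusted p = 5.30e-05), and Scarb1, the HDL receptor, ran from 941 in Swiss 2 to 1977 in Swiss 19 (adjusted p = 0.000101). In non-adipogenic lines Lrpap1, the chaperone of these receptors (5546 in Swiss 3 against 3349 and 3616, adjusted p = 8.04e-05), Lrp1 (6596 in Swiss 3 against 4432 and 4746, adjusted p = 0.00318) and Vldlr (1498 against 1009 and 1244, adjusted p = 0.0466) were highest in Swiss 3.

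Of 19 genes of fatty acid transport and activation, 1 was called between classes (1.52% of all genes). Among preadipose lines 3 differed (23.1% of all genes) and among non-adipogenic lines 4 (16.4%). Cav1, the partner of Cav2, was highest in Swiss 19 (16029) and lowest in Swiss 9 (9275, limma adjusted p = 4.54e-06), and in non-adipogenic lines ran from 3073 in Swiss 3 to 7162 in Swiss 22 (adjusted p = 2.71e-07). Cavin1, a coat protein of caveolae, was lowest in Swiss 19 (7131) and highest in Swiss 2 (13312, adjusted p = 2.92e-06). Acsl4, which activates fatty acids with coenzyme A, was lowest in Swiss 2 (905, adjusted p = 0.00524) and in Swiss 3 (816, adjusted p = 0.0152) within their classes. Dbi, which binds the activated fatty acids, was highest in Swiss 3 among non-adipogenic lines (7029, adjusted p = 0.00281). The FABP genes Fabp2, Fabp6, Fabp7 and Pmp2 were above background in no line.

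Of 18 genes of lipolysis and lipid droplets, 0 were called between classes (limma, 1.52% of all genes), and 6 had an unadjusted p below 0.05 (15.6% of all genes). Among preadipose lines 5 differed (23.1% of all genes) and among non-adipogenic lines 4 (16.4%). The droplet coat genes Plin2 and Plin3 were both highest in Swiss 2 among preadipose lines (8940.5, adjusted p = 1.34e-05, and 8578, adjusted p = 5.74e-07) and in Swiss 3 among non-adipogenic lines (5295, adjusted p = 9.02e-07, and 7643, adjusted p = 2.52e-06). Lipa, the acid lipase of lysosomes, was also highest in Swiss 2 (5806, adjusted p = 7.87e-06) and Swiss 3 (9574, adjusted p = 5.26e-06). The macrophage markers named above summed highest in these same lines of each class, at 1945 and 2211, and their part was not tested. Markers below background entered these sums, and Swiss 2 (143) and Swiss 3 (105) also had the highest background of their classes. Single markers did not all follow the sums. Among preadipose lines Adgre1 (336) and Fcgr1 (268) were highest in Swiss 2, but Csf1r was highest in Swiss 8 (730). Lyz2, which also encodes a lysosomal protein, read 872 in Swiss 3, but 221 in Swiss 2, below the 299 of Swiss 9. G0s2, Cidea, Cidec and Aqp7, genes of fat-storing cells, were above background in no line. Other droplet genes went the other way: Plin5 and Hilpda were above it in all 7 lines, and Plin4 in 4 preadipose and 2 non-adipogenic lines. Of the 18 genes, 10 were above background in all lines and 5 in none. Of 7 signalling genes of lipolysis, 0 were called between classes (limma, 1.52% of all genes), and 2 had an unadjusted p below 0.05 (15.6% of all genes). Among preadipose lines 2 differed (23.1% of all genes) and among non-adipogenic lines 3 (16.4%). Prkar2b, a regulatory subunit of protein kinase A, ran from 1393 in Swiss 2 to 3749 in Swiss 19 (adjusted p = 0.000302) and from 919.7 in Swiss 3 to 2737 in Swiss 22 (adjusted p = 1.67e-05). Gnas, the stimulatory G protein, was highest in Swiss 2 (37127, adjusted p = 0.000781), and Adcy3, an adenylate cyclase (993, adjusted p = 0.00454), was highest and the phosphodiesterase Pde3b (111, adjusted p = 0.0141) lowest in Swiss 3 among non-adipogenic lines.

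The genes whose line means most resembled those of Lpl were, among 11958 candidates above background in at least 4 lines, Abcc4 (Pearson r = 0.993 over 7 line means), Slc6a9 (0.992), Blvrb (0.987), Ero1a (0.981) and Sod3 (0.979). Sod3, the extracellular superoxide dismutase, read 4268 (Swiss 19), 3943.5 (Swiss 9), 3926 (Swiss 2) and 1788 (Swiss 8), and 1492, 1292 and 1158 in Swiss 3, Swiss 5 and Swiss 22. Abcc4, a membrane exporter, read 1013, 811, 796 and 559 in the same preadipose lines and 471, 338 and 259 in the non-adipogenic ones. These are the best of many over 7 points and are given as a description. Among the other 9 genes Angptl4 was the most similar to Lpl (r = 0.861), and Fabp5 (-0.582) and Fabp4 (-0.222) had values below 0. These correlations span both classes on quantile-normalized values. They thus hold the class contrast of Lpl by which the genes were picked, and are a description.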

How the data were processed

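RNA of 20 samples was hybridized to 1 array each, per the labels' protocols. The authors deposited linear intensity values per probe set, and their summarization and scaling is not given in the sources used here. Between arrays, medians spanned 0.607 on the log2 scale and mean intensities 5.97-fold, so log2(intensity + 32) was quantile-normalized. Of the 45101 probe sets 64 were controls. A gene was represented by its probe set with the highest mean. Among those used, the probe sets of Mgll, Angptl4, Lipa, Prkar2b, Gnas, Plin5, Vldlr and Dbi were of kinds that can match several transcripts. Lines within a class were compared on all 20 arrays with 1 term per line (limma 3.58.1 in R 4.3.3, moderated F test and pairwise contrasts), and classes on 7 line means, p-values being adjusted by Benjamini-Hochberg across 18193 genes and called below 0.05. On simulated data with 100 genes changed per size, the class fit recovered 82% at a log2 change of 1 and 98% at 2. The preadipose F test recovered 99% and 100%. False calls numbered 9 in the class fit and 3 in the F test. The changed genes were drawn from those above the median level, and for the F test only 1 line was changed. Recovery was thus not measured for genes below that level.

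The number of arrays limits the precision. The members, lists and tests were chosen with earlier results of these data known. All members were named. From each list up to 4 genes called between classes and up to 3 called within each class (largest range first) were named, and the 5 genes most like Lpl, passing over clone names. Gpihbp1, the FABP genes at background, G0s2, Cidea, Cidec, Aqp7, Plin4, Plin5 and Hilpda were named after their values were seen. Alternatives covered normalization, pseudocount, dim genes, probe sets, replicate number, brightness, and left-out arrays and lines. Arrays were left out after normalization.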

Additional observations from a re-analysis of the deposited data

Results flagged for a closer look

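Fabp4 stood out in 1 preadipose line. Its scaled intensity in Swiss 19 was 1767, against 280 to 334 in Swiss 2, Swiss 8 and Swiss 9, and the gap to the nearest line was 0.963 of the whole range of the 4 lines, above the critical value of Dixon's test for 4 samples at the 95% level. Of 30 genes examined in this way, the 10 and 20 named from the lists, 1 had such a line. Chance alone gives such a gap in about 1 of 20 groups.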

How the results depend on the processing

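Counts of genes within classes changed with the normalization, as did those over all genes. With arrays centred on their medians, which leaves the several-fold difference in mean intensity largely in place, 5 of the 10 genes were called within non-adipogenic lines, and of the 66 list genes 47 within preadipose lines, 41 within non-adipogenic lines and 0 between classes, where 68.7%, 59.1% and 0.0385% of all genes were called. Without normalization the 10 genes gave 10 and 7 calls and 52 of 90 pair calls, and the list genes 44, 41 and 0, where 70%, 63.4% and 0.011% of all genes and 44.4% of all pair tests were called. Lmf2 reversed to -0.043 and -0.17 in these fits. Scaling before the pseudocount and a pseudocount of 8 each left 1 list gene called between classes, where 0.478% and 1.63% of all genes were called. They moved the log2 difference of Lpl to 3.29 and 2.86. The spike level as a covariate left 8 list genes within non-adipogenic lines (9.15% of all genes). Within the dim arrays 3 of the 10 genes, 10 list genes and 7 pair differences were called over Swiss 2, Swiss 8 and Swiss 9. Fewer pairs could be tested there. Of all genes 8.65% were called within the dim arrays among preadipose lines, and of the pair tests of all genes 4.84%. No count is given for the bright arrays, where Swiss 3 had 1 array. With the line as a random block 15 list genes were called between classes (11.3% of all genes).

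Leaving out single arrays gave 5 to 6 calls within preadipose and 2 to 4 within non-adipogenic lines among the 10 genes, 22 to 27 pair calls, and 14 to 21 and 11 to 17 list genes. Leaving out an array or a line gave 1 to 4 list genes between classes and a log2 difference of Lpl from 1.86 to 2.42. The count between classes was 4 without Swiss 19 and 1 without Swiss 8, Swiss 3, Swiss 5 or Swiss 22.

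Samples of different lines share only a replicate number. Their deviations from the line means correlated at 0.0016 on average for the same number. With the replicate block the 10 genes gave 6 and 3 calls and 26 pair calls, the list genes 18, 13 and 3, and Lpl a log2 difference of 2.11. The share over all genes was not counted for this fit or for those with left-out arrays or lines. In the dimmest genes, Cd36 and Mgll, signal near background limits what could be detected.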

Other observations

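Of the 66 list genes 12 (18.2%) had line means that did not overlap between classes, against 14% of all genes, and 10 of these missed the threshold. The 10 were Sdc1, Prkacb, Cav1, Faf2, Plin2, Slc27a3, Abhd6, Lrpap1, Plin4 and Dbi, and those with values here were picked after these were seen. Sdc1, a heparan sulfate proteoglycan of the cell surface that can hold lipase, had a scaled intensity of 3918 ± 593 (SD, n = 4 lines) in preadipose and 2502.5 ± 156 (SD, n = 3 lines) in non-adipogenic lines (log2 difference 0.56 ± 0.11 SE, limma adjusted p = 0.0533). Cav1 was 11773 ± 2957 against 5139 ± 2045 (adjusted p = 0.0963), and Plin2 was 7143 ± 1299 against 4102 ± 1084 (adjusted p = 0.120). Prkacb, a catalytic subunit of protein kinase A, was 1359 ± 114 against 1755 ± 99.6 (adjusted p = 0.0908). Lrpap1 was 2559.6 ± 169.6 against 4170.2 ± 1199 (adjusted p = 0.145).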
